A study of Mus musculus with 6 samples.

Results

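The transcripts described here are the 10 members of the mouse E2F and RB families that were looked up by gene symbol, E2f1, E2f2, E2f3, E2f4, E2f5, E2f6, E2f7, E2f8, Rb1 and Rbl1. They are 10 of the 39017 genes in the count table, and all 10 were among the 18268 genes with enough counts to be tested. They were measured by RNA-seq in induced germinal center B cells (iGBs), which were splenic B cells of C57BL6/J mice cultured for 3.5 days on fibroblasts that display CD40L and secrete BAFF, with IL-4. The labels give 5 ng/ml of IL-4, and the study's methods state a lower concentration. Control iGBs came from 3 Cg1-cre mice and Prmt1-null iGBs from 3 Cg1-cre Prmt1f/f mice, and each mouse gave 1 library. Each group held 2 females and 1 male, Control replicate 1 and Prmt1-null replicate 3 being the males. Ages were not given in the sources used here. Both groups carry the Cre recombinase, which is driven from the IgG1 constant region locus and is made only after a B cell is activated, so Prmt1 is deleted during the culture and not in the naive cells. Prmt1 encodes the main type I protein arginine methyltransferase. Feeder cells were removed with magnetic beads before RNA was extracted.

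E2F proteins bind the promoters of genes needed for DNA replication and mitosis, most of them as a pair with a DP protein. E2F1, E2F2 and E2F3 activate such genes, E2F4 and E2F5 repress them when bound to a pocket protein, E2F6 represses without pocket proteins, and the atypical E2F7 and E2F8 repress without a DP partner. The pocket proteins RB (from Rb1), p107 (from Rbl1) and p130 (from Rbl2) hold E2F proteins inactive until cyclin-dependent kinases phosphorylate them, and several family genes, such as E2f1, E2f2, E2f3, E2f7, E2f8 and Rbl1, are themselves known E2F targets. In germinal center B cells, which divide very fast, this switch is set by D-type cyclins and MYC.

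Of the 10 members, E2f2 was the single one whose transcript fell in Prmt1-null iGBs past the threshold, and its mean was 74.3% of the Control mean. E2f4, the repressor with the highest level per length, had the same mean in both groups. E2f7, E2f8 and Rb1 had means of 78.1%, 85.3% and 85.7% of Control, none of them past the threshold. The other members, E2f1, E2f3, E2f5, E2f6 and Rbl1, had log2 fold changes between −0.16 and −0.05 and were not called.

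Some family promoters carry letters to which E2F proteins bind, and 4 upstream windows are shown for this reason: that of E2f2, the member that fell, and those of the 3 members whose window holds an E2F word. RefSeq start sites of mouse build GRCm38.p6, which has the coordinates of the mm10 build used by the authors, were found for 7 of the 10 members, with 9 start sites. E2f4, E2f5 and Rb1 were not in that table. Each window holds the 250 bases before a start site, written 5′ to 3′ on the strand of the gene, with the E2F words in capitals. The words searched were TTTCCCGC, TTTGGCGC, TTTCGCGC and TTTGCCGC on both strands.
E2f2, chr4:136172024-136172273, plus strand: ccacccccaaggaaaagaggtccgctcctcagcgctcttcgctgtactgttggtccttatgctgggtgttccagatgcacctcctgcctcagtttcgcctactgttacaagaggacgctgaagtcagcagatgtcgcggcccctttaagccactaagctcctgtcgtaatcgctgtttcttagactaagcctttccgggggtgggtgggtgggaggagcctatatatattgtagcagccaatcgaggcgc
E2f3, chr13:29986064-29986313, minus strand: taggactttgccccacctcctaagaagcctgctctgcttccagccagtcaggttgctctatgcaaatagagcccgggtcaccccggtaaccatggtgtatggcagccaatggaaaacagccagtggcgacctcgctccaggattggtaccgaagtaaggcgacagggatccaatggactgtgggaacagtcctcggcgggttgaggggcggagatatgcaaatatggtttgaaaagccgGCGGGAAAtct
E2f7, chr10:110745189-110745438, plus strand: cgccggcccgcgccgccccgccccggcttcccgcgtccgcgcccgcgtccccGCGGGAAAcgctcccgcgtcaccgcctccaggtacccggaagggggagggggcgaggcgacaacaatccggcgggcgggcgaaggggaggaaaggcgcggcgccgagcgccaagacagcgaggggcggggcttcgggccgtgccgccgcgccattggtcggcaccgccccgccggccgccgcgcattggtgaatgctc
Rbl1, chr2:157204535-157204784, minus strand: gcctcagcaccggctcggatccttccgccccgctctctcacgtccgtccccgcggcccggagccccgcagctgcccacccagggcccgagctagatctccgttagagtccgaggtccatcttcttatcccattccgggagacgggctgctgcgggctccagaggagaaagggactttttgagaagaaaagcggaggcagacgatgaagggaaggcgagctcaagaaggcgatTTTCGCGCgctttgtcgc

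An E2F word was present 11 bases before the start of E2f3 (read GCGGGAAA), 198 bases before the start of E2f7 (also GCGGGAAA) and 18 bases before the start of Rbl1 (TTTCGCGC). The same search over the 250 bases before 32851 RefSeq start sites found a word in 611, or 1.86%. Neither of the start sites of E2f2 held one, which says only that these letters are not in these windows. The start used for E2f1, the second one of E2f2 and the other one of E2f3 lie inside the gene as GENCODE draws it, so the bases before the outermost start of E2f1 were not searched. A CCAAT box, present in 33.8% of all windows on either strand, lay 13 bases before the start of E2f2 shown above, and CCAAT boxes were also found in the second E2f2 window (3), the E2f3 window shown (3), and those of E2f7 (2) and E2f8 (1). The word TTTGAA, which is the core of the cell-cycle homology region bound by the MuvB complex and is found on either strand in 16.0% of windows, was present 20 bases before the start of E2f8, 23 before that of E2f3 and 31 before the second start of E2f2. The E-box CACGTG, the site of MYC and MAX, was found in 6.02% of all windows and, among the members, in the other E2f3 window alone. None of these words overlapped an E2F word. The matches describe the sequence and do not show binding.

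Libraries held 45343250 to 62774232 counts, and the detection floor of 3 counts, which covers counting error only, lay at 0.0478 to 0.0662 CPM (counts scaled to library size). Every member was far above that floor. Prmt1, the targeted gene, was at 3964, 3924 and 4838 normalized counts in Control and at 1745, 1478 and 1477 in Prmt1-null iGBs, which leaves 36.9% of the Control mean. The groups did not overlap, and with 20 ways to arrange 6 libraries a two-sided exact permutation test gave p = 0.1, the smallest value that 3 against 3 allows. All 8 B cell markers were detected, with a summed level of 7789 to 8164 CPM in Control and 7835 to 8325 in Prmt1-null libraries. Markers of the feeder fibroblasts summed to 27.2 to 31.3 and 29.6 to 38.5 CPM, with Lum at 0 in every library. All 6 feeder markers that could be tested had positive log2 fold changes (median 0.28), of which 0 passed the threshold (1.18% of all genes) and 2, Col1a1 (0.44, edgeR adjusted p = 0.173) and Sparc (0.64, adjusted p = 0.36), reached an unadjusted p under 0.05 (13.5% of all genes). T cell markers summed to 23.4 to 27.2 and 25.1 to 28.2, and those of myeloid cells to 40.7 to 47.0 and 44.4 to 51.1. Nearly all of the T cell sum was Lck, with means of 1323 and 1411 normalized counts. No other T cell marker had a group mean above 27.2, that of Cd3g in Prmt1-null iGBs. Plasma cell markers summed to 1072 to 1190 in Control and 1257 to 1341 CPM in Prmt1-null libraries, which did not overlap. The largest parts of this sum were Irf4 and Xbp1, with Control means of 27160 and 18770 normalized counts, and the groups overlapped for Irf4. Of the 6 plasma cell markers tested, 5 had positive log2 fold changes, and Jchain had a negative one (−0.09). The part of these other cells in the values given here was not tested. Control replicate 1 stood apart from the other 5 libraries on the first principal component, at −36.7 against 0.75 to 15.1. For the members, Rbl2, Tfdp1, Tfdp2 and the D-type cyclins, log2 fold changes that moved by over 1.5 times without it are given both ways. Those of the markers and of the Mcm genes are given from all libraries only. In bulk RNA, fewer cells of a type or cell-cycle phase and less RNA per cell cannot be told apart.

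Values below are counts normalized to the mean library size, a fold change is Prmt1-null over Control on the log2 scale with its standard error (SE), and the threshold is an adjusted p under 0.05 in edgeR's quasi-likelihood test with a mean normalized count over 100. The adjusted p is the Benjamini-Hochberg value over all 18268 genes. Of these, 216 genes passed the threshold, or 1.18%, with 110 lower in Prmt1-null iGBs (0.602%) and 106 higher (0.580%). Of the 10 members, 1 passed it, and it was lower. The median log2 fold change was −0.14 over the members and −0.001 over all genes tested. An unadjusted p under 0.05 was reached in either direction by 4 members, E2f2, E2f7, E2f8 and Rb1, which were all lower, and by 13.5% of all genes tested. For 5 members, E2f1, E2f2, E2f7, Rb1 and Rbl1, every Prmt1-null library was below every Control library, which held for 9.92% of all genes tested. The opposite order, with every Prmt1-null library higher, was seen in 0 members and in 9.95% of all genes, so that groups were apart in 5 of 10 members and in 19.9% of all genes.

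**Figure D1:**
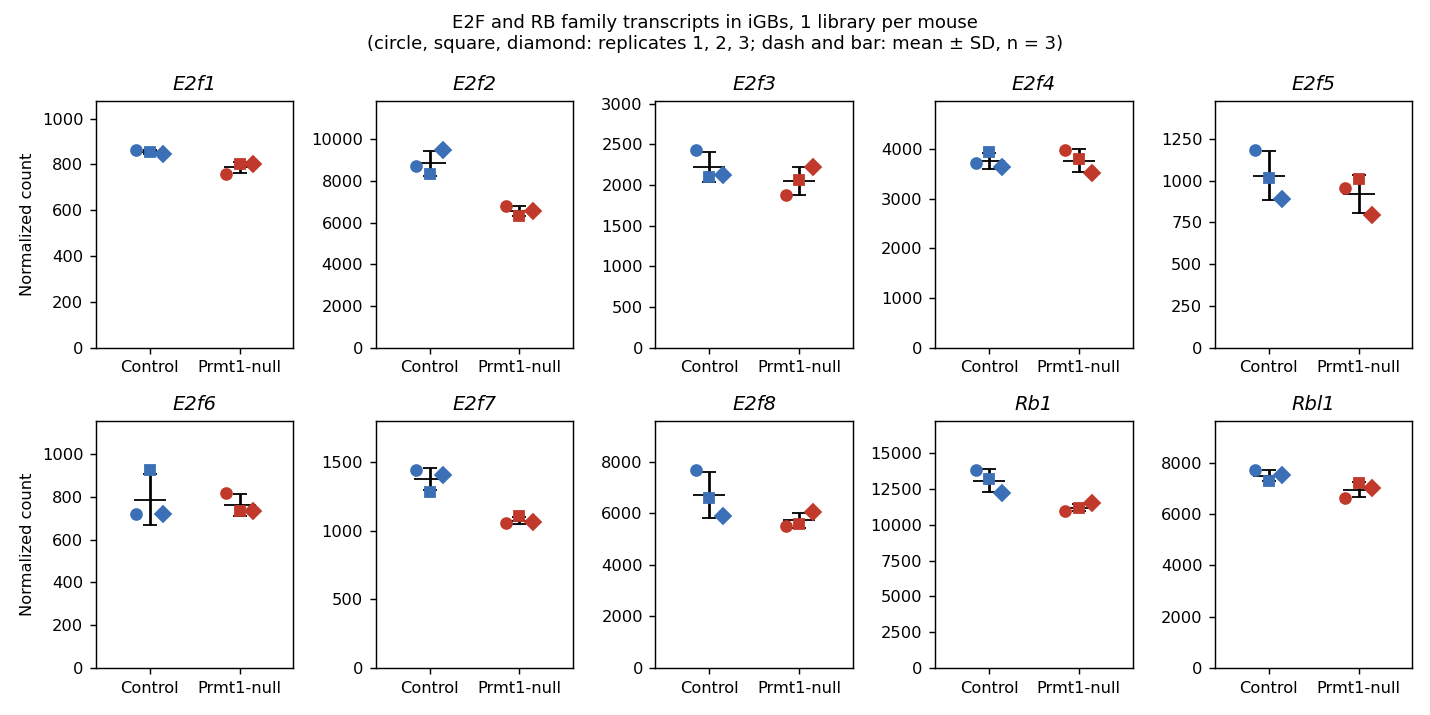
Normalized count of each member (vertical axis, from 0, a scale of its own for each gene) in the 3 Control and 3 Prmt1-null libraries (horizontal axis), with the mean and SD of each group. The groups are fully separated for E2f1, E2f2, E2f7, Rb1 and Rbl1, and E2f2, the member past the threshold, runs from 8318 to 9479 in Control and from 6341 to 6805 in Prmt1-null libraries.

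E2f2 encodes an activator E2F known for its part in lymphocyte proliferation. The gene (ENSMUSG00000018983) lies on chr4:136172394-136196057, plus strand, and shares no exon bases with another gene. Its normalized counts were 8731, 8318 and 9479 in Control libraries (8842 ± 588.5, SD, n = 3). They were 6805, 6341 and 6571 in Prmt1-null libraries (6572 ± 231.9, SD, n = 3). Every Prmt1-null library was below every Control library, with a gap wider than the range within either group. E2f2 fell by 0.43 on the log2 scale (SE 0.06, 95% interval −0.57 to −0.29, edgeR adjusted p = 0.0061) and ranked 32 by p among all genes tested. Among females the values were 8318 and 9479 against 6805 and 6341, and in males, with 1 library a group, 8731 against 6571. Without Control replicate 1 the log2 fold change was −0.43 (adjusted p = 0.0142). The call was lost without Prmt1-null replicate 2, where the log2 fold change was −0.40 with an adjusted p of 0.0682, and over the other alternatives with all libraries the adjusted p ran from 1.49e-07 to 0.00966.

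E2f1 encodes the activator E2F best known for driving entry into S phase and, when unrestrained, apoptosis. The gene (ENSMUSG00000027490) lies on chr2:154559407-154569892, minus strand. In normalized counts E2f1 was at 862.6, 856 and 846.2 in Control libraries and 759.4, 802 and 800.6 in Prmt1-null libraries. The Control libraries lay within a narrow band (854.9 ± 8.28, SD, n = 3), and all 3 Prmt1-null libraries lay below it (787.3 ± 24.2, SD, n = 3). The log2 fold change of −0.12 (SE 0.10, 95% interval −0.34 to 0.10) did not pass the test (edgeR adjusted p = 0.674).

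E2f3 encodes the activator that acts together with the other two in dividing cells, and its gene (ENSMUSG00000016477) lies on chr13:29906575-29986063, minus strand. The libraries held 2428, 2102 and 2117 normalized counts of it in Control and 1879, 2057 and 2220 in Prmt1-null libraries, and the groups overlapped. The log2 fold change was −0.11 (SE 0.09, 95% interval −0.30 to 0.08, edgeR adjusted p = 0.648). The highest E2f3 value was that of Control replicate 1, without which the log2 fold change was −0.04.

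E2f4 encodes a repressor that sits with p107 and p130 on cell-cycle promoters in cells that are not dividing. The gene (ENSMUSG00000014859) lies on chr8:105297663-105305370, plus strand. Its normalized counts were 3717, 3935 and 3630 in Control and 3974, 3795 and 3515 in Prmt1-null libraries, so the ranges of the groups nearly coincided. The means were 3761 ± 157 and 3761 ± 231.6 (SD, n = 3 each), and the 95% interval of the log2 difference ran from −0.14 to 0.14 (edgeR adjusted p = 0.999). The interval holds neither the estimate for E2f2 nor that for E2f7, but a difference between these genes was not tested. Without Control replicate 1 the log2 fold change of E2f4 was −0.006.

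E2f5, the other repressor that depends on pocket proteins, lies on chr3:14578641-14606309, plus strand (ENSMUSG00000027552), and 26 of its exon bases are shared with an opposite-strand gene. E2f5 stood at 1183, 1017 and 889.2 normalized counts in Control and 958.8, 1008 and 795 in Prmt1-null libraries. The groups overlapped, and the log2 fold change of −0.16 (SE 0.13, 95% interval −0.44 to 0.12, edgeR adjusted p = 0.644) came with the widest interval of the family. Without Control replicate 1, the library with the highest E2f5 value, it was −0.05. Over all fits with 1 library left out it ran from −0.255 to −0.048.

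E2f6 encodes the repressor that lacks the parts of the protein that bind pocket proteins and works with a Polycomb complex called PRC1.6. The gene (ENSMUSG00000057469) lies on chr12:16810963-16839742, plus strand. The normalized counts of E2f6 were 720.5, 924.5 and 718.4 in Control and 821.1, 733.8 and 733.5 in Prmt1-null libraries. In each group 1 library stood above the other two, and the groups overlapped. The log2 fold change was −0.05 (SE 0.13, 95% interval −0.32 to 0.22, edgeR adjusted p = 0.905), and it was −0.11 without Control replicate 1 and 0.08 without Control replicate 2.

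E2f7 encodes an atypical E2F that represses E2F targets late in S phase and is also a target of p53. The gene (ENSMUSG00000020185) lies on chr10:110745439-110787384, plus strand, with 86 exon bases shared with an opposite-strand gene. Its normalized counts were 1439, 1284 and 1405 in Control libraries (1376 ± 81.5, SD, n = 3) and 1054, 1107 and 1062 in Prmt1-null libraries (1074 ± 28.7, SD, n = 3). The groups did not overlap. Its log2 fold change of −0.36 (SE 0.10, 95% interval −0.56 to −0.15), the second in size within the family, missed the threshold (edgeR adjusted p = 0.0957). DESeq2 called it with the same size (−0.36, adjusted p = 0.00946).

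E2f8 encodes the partner of E2F7 in repression, and its gene (ENSMUSG00000046179) lies on chr7:48866429-48881596, minus strand. For E2f8, normalized counts were 7659, 6575 and 5909 in Control libraries (6714 ± 883.4, SD, n = 3) and 5506, 5601 and 6066 in Prmt1-null libraries (5724 ± 299.6, SD, n = 3). Prmt1-null replicate 3 was above Control replicate 3, so the groups overlapped. E2f8 had a log2 fold change of −0.23 (SE 0.08, 95% interval −0.41 to −0.05, edgeR adjusted p = 0.22). This value depended on single Control libraries, at −0.12 without Control replicate 1 (adjusted p = 0.506) and −0.31 without Control replicate 3 (adjusted p = 0.046). An opposite-strand gene, Gm2788, shares 610 exon bases with E2f8, and the strand setting of the counting was not stated. Gm2788 had means of 315.7 and 270.6 normalized counts, low against those of E2f8.

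Rb1 encodes RB, the pocket protein that restrains the activator E2Fs. The gene (ENSMUSG00000022105) lies on chr14:73183673-73325822, minus strand. Rb1 had normalized counts of 13790, 13210 and 12240 in Control libraries (13080 ± 787.4, SD, n = 3) and 10960, 11150 and 11500 in Prmt1-null libraries (11210 ± 273.8, SD, n = 3). The groups did not overlap. A log2 fold change of −0.22 (SE 0.06, 95% interval −0.36 to −0.09) did not pass the threshold (edgeR adjusted p = 0.108). DESeq2 called it (−0.23, adjusted p = 0.0151), as did edgeR without Control replicate 3 (−0.27, adjusted p = 0.0428). Rb1 shares 896 exon bases with the opposite-strand genes Lpar6 and Rcbtb2, whose means were 518 and 1863 normalized counts in Control and 422.2 and 1833 in Prmt1-null iGBs.

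Rbl1 encodes p107, a pocket protein that binds the repressor E2Fs in cycling cells. The gene (ENSMUSG00000027641) lies on chr2:157145893-157204534, minus strand. In normalized counts, Rbl1 stood at 7702, 7286 and 7528 in Control libraries (7505 ± 208.6, SD, n = 3) and 6634, 7198 and 7021 in Prmt1-null libraries (6951 ± 288.4, SD, n = 3). The groups were separated by a small gap, between 7286 and 7198. Its change of −0.11 on the log2 scale (SE 0.06, 95% interval −0.24 to 0.01) did not pass the test (edgeR adjusted p = 0.439).

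**Figure D2:**
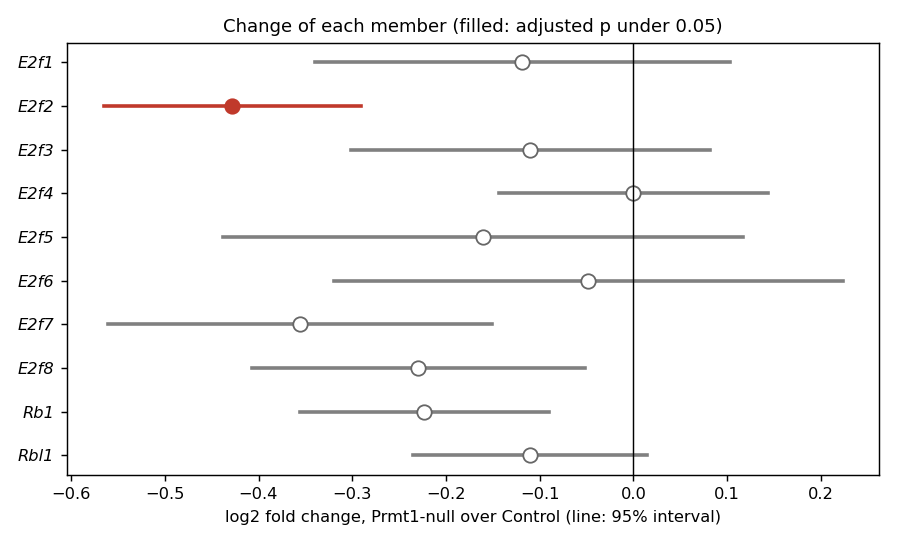
Log2 fold change of each member, Prmt1-null over Control (horizontal axis), with its 95% interval as a line. The filled point is E2f2, the member past the threshold, and the intervals of E2f2, E2f7, E2f8 and Rb1 end below 0.

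The remaining partners of the family, looked at whatever their values, were not called. Rbl2, which encodes p130, had means of 4564 ± 196.1 and 4532 ± 214.2 normalized counts (SD, n = 3 each), with a log2 fold change of −0.01 (95% interval −0.14 to 0.12, edgeR adjusted p = 0.965), or 0.02 without Control replicate 1. Tfdp1, the main DP partner, had means of 8084 ± 189.5 and 7879 ± 69.2 (log2 fold change −0.04, adjusted p = 0.823). Tfdp2 had means of 2284 ± 153.8 and 2096 ± 90.1 (log2 fold change −0.12, adjusted p = 0.541, and −0.07 without Control replicate 1). For all 3 the groups overlapped. Of the 3 pocket protein genes, Rb1 thus had the largest log2 fold change and Rbl2 the smallest, but the differences among them were not tested.

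Levels were compared between genes per length, as CPM per kilobase of exon. In Control iGBs Rb1 was highest (39.2 ± 2.36, SD, n = 3), followed by E2f2 (32.7 ± 2.17), E2f4 (27.7 ± 1.16), Rbl1 (22.6 ± 0.628), E2f8 (22.3 ± 2.93), E2f5 (10.4 ± 1.49), E2f3 (7.36 ± 0.611), E2f1 (4.89 ± 0.0473), E2f7 (2.75 ± 0.163) and E2f6 (2.51 ± 0.377). Neighbours in this order did not overlap, except Rbl1 with E2f8 and E2f7 with E2f6. E2f2 was thus the most abundant E2F transcript and the most abundant activator in Control iGBs. In Prmt1-null iGBs E2f2 and E2f4 had changed places, with E2f4 at 25.9 to 29.2 and E2f2 at 23.4 to 25.1, while in Control E2f2 had been at 30.7 to 35.0 and E2f4 at 26.7 to 28.9. E2f7 and E2f6, which overlapped in Control, were apart in Prmt1-null iGBs, with E2f6 at 2.34 to 2.62 above E2f7 at 2.11 to 2.22. Per length of the longest annotated transcript in place of all exons, E2f4 was above E2f2 in Control as well (34.0 and 33.7), and E2f6 above E2f7 (4.71 and 4.53), so which of each pair leads depends on the length used, and the step between the groups does not.

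**Figure D3:**
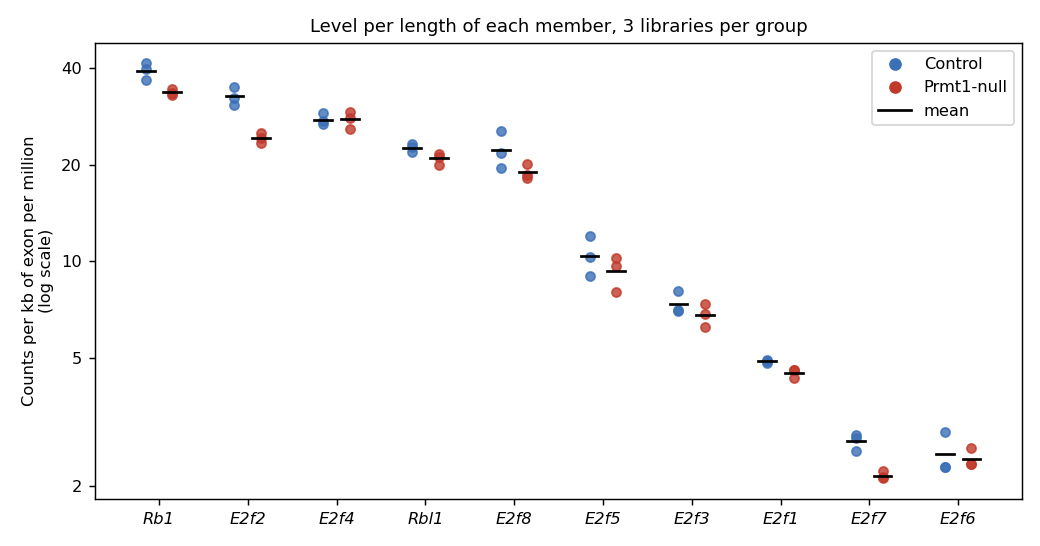
Level of each member per length (vertical axis, CPM per kilobase of exon, log scale) in each library, ordered by the Control mean, with group means as dashes. E2f2 stands above E2f4 in the Control libraries and below it in the Prmt1-null libraries, and E2f4 has the same mean in both groups.

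On that scale the 8 E2F transcripts summed to 107.3 to 115.1 in Control and 94.7 to 97.6 in Prmt1-null libraries. E2f2 made up 28.0% to 32.6% of the sum in Control and 24.4% to 25.8% in Prmt1-null iGBs, and E2f4 23.8% to 26.5% and 27.3% to 29.9%. The 3 activators together took 39.0% to 43.7% and 36.3% to 38.3%. The share of E2f4, E2f5 and E2f6 together was 35.4% to 38.7% in Control and 38.3% to 42.6% in Prmt1-null iGBs, and that of E2f7 and E2f8 20.9% to 24.6% and 20.9% to 23.5%. The ranges of the activator share did not overlap between the groups, and those of the other 2 classes did. These shares follow in part from the fall of E2f2, so they are given as a description with no test.

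The genes that act on RB from above were examined as a list of 16 cyclins, kinases, an activating phosphatase and CDK inhibitors. All 16 were tested, 12 had a negative and 4 a positive log2 fold change, with a median of −0.12, and 1 passed the threshold, against 1.18% of all genes. An unadjusted p under 0.05 was reached by 5, against 13.5% of all genes, with Ccne2, Cdk2 and Cdkn2c lower and Cdk4 and Cdkn1a higher. The gene past the threshold was Ccne2, which encodes a cyclin that activates CDK2 at the start of S phase and is also an E2F target. Ccne2 was at 3842, 3607 and 3049 normalized counts in Control and 2385, 2751 and 2660 in Prmt1-null libraries, with no overlap, and it fell by 0.43 on the log2 scale (SE 0.09, edgeR adjusted p = 0.0332). Ccne2 shares 609 exon bases with the opposite-strand gene Ints8. The D-type cyclins, whose kinases phosphorylate RB, gave no call. Ccnd2 had means of 17080 ± 408.2 and 16360 ± 1308 normalized counts (log2 fold change −0.06, adjusted p = 0.759), Ccnd3 of 7354 ± 717.8 and 7886 ± 339.4 (0.10, adjusted p = 0.597), and Ccnd1 of 238.4 ± 60.4 and 226.9 ± 9.51 (−0.07, adjusted p = 0.908). Without Control replicate 1 the log2 fold change was 0.03 for Ccnd3, −0.04 for Ccnd2 and −0.26 for Ccnd1, and none was called.

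Cdkn1a encodes p21, the CDK inhibitor that p53 induces and that keeps RB unphosphorylated. Its normalized counts were 635.4, 724.3 and 630.2 in Control and 1043, 774.3 and 1111 in Prmt1-null libraries. The groups did not overlap, and Prmt1-null replicate 2 stood nearest to Control. The log2 fold change was 0.56 (SE 0.14, 95% interval 0.26 to 0.85), the highest in the list, and missed the threshold (edgeR adjusted p = 0.0749). DESeq2, the program the authors used, called it with the same size (0.55, adjusted p = 0.00499), and the paper states that Cdkn1a is upregulated in these cells.

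The E2F targets of the G1/S transition were a list of 44 textbook genes of replication origins, DNA polymerases, nucleotide supply and replication checkpoints. All 44 were tested. The log2 fold change was negative for 35 and positive for 9, with a median of −0.13 against −0.001 over all genes tested. The threshold was passed by 5 genes, all lower, against 0.602% of all genes called lower, and an unadjusted p under 0.05 was reached by 16, of which 15 were lower, against 13.5% of all genes in either direction. Groups did not overlap in 22 genes, of which 20 had every Prmt1-null library below every Control library, against 9.92% of all genes. The remaining 2, Mcm3 and Cdt1, had the opposite order, which 9.95% of all genes had. The 5 genes that fell were Ccne2, described above, Msh6, Dck, Rrm2 and Rfc2.

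Msh6 encodes a subunit of the mismatch recognition complex, and had normalized counts of 3607, 3615 and 3612 in Control and 2561, 2929 and 2962 in Prmt1-null libraries. It fell by 0.36 on the log2 scale (SE 0.07, edgeR adjusted p = 0.0283). Dck, the kinase that salvages deoxycytidine, had 8632, 7736 and 7662 in Control and 6015, 6460 and 6717 in Prmt1-null libraries, and fell by 0.32 (SE 0.07, adjusted p = 0.033). Rrm2 encodes the small subunit of ribonucleotide reductase, which makes deoxyribonucleotides, and had 7687, 7411 and 7673 against 5723, 6267 and 6486, a fall by 0.30 (SE 0.06, adjusted p = 0.033). Rfc2 encodes a subunit of the clamp loader, shares 952 exon bases with the opposite-strand gene Lat2, and had 4282, 4324 and 4217 against 3461, 3367 and 3585, a fall by 0.30 (SE 0.06, adjusted p = 0.0282). None of these groups overlapped. Each of the 5 calls was near the threshold. Without Control replicate 1 the adjusted p was 0.0575 for Rfc2, 0.0599 for Msh6, 0.0681 for Rrm2, 0.0796 for Dck and 0.0914 for Ccne2, and none of the 5 was called without Control replicate 2 or without any 1 of the Prmt1-null libraries either, while with any 1 library left out their log2 fold changes stayed between −0.52 and −0.25.

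The targets did not all share that direction. The 6 subunits of the replicative helicase, singled out after their values were seen, had log2 fold changes of 0.08 for Mcm2, 0.18 for Mcm3, −0.08 for Mcm4, 0.12 for Mcm5, 0.09 for Mcm6 and −0.07 for Mcm7. None passed the threshold, and the lowest edgeR adjusted p among them was 0.181, for Mcm3, whose groups did not overlap. Mcm2 had 4478, 5212 and 5040 normalized counts in Control and 5023, 5244 and 5301 in Prmt1-null libraries. Its lowest value was that of Control replicate 1, the library that stood apart.

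The genes of G2 and mitosis that the MuvB complex controls, first as part of the repressive DREAM complex with p107 or p130 and E2F4 and later with MYBL2 and FOXM1, were a list of 25. Of these, 22 had a negative and 3 a positive log2 fold change, with a median of −0.16, 14 reached an unadjusted p under 0.05, against 13.5% of all genes, and 13 of these were lower and Cenpa, a centromeric histone, was higher. The threshold was passed by 2, both lower, against 0.602% of all genes called lower. Kif11, the motor that separates the spindle poles, had normalized counts of 14000, 12990 and 12220 in Control and 9978, 10350 and 10220 in Prmt1-null libraries, and fell by 0.36 (SE 0.06, edgeR adjusted p = 0.0152). Ncapd2 encodes a condensin subunit, and had 11830, 12570 and 12770 against 9776, 9993 and 10540, a fall by 0.29 (SE 0.06, adjusted p = 0.033). It shares 472 exon bases with same-strand small RNA and predicted genes. Both stayed called without Control replicate 1 (adjusted p = 0.0333 for Kif11 and 0.0265 for Ncapd2) and were lost without Control replicate 2 or any 1 of the Prmt1-null libraries (adjusted p of 0.0681 to 0.111 for Kif11 and 0.0695 to 0.2 for Ncapd2).

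Among the 7 MuvB, MYB and FOXM1 genes themselves, none passed the threshold, against 1.18% of all genes, 1 reached an unadjusted p under 0.05, against 13.5% of all genes, and the median log2 fold change was −0.11. That gene was Foxm1, the mitotic activator, with 3605, 3169 and 3416 normalized counts in Control and 2798, 3167 and 2831 in Prmt1-null libraries. The nearest libraries of the groups were at 3169 and 3167, and the log2 fold change was −0.21 (SE 0.07, edgeR adjusted p = 0.209). Lin52, the MuvB subunit whose phosphorylation assembles DREAM, had means of 735.6 ± 67.5 and 856 ± 58.2 (log2 fold change 0.22, adjusted p = 0.436).

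**Figure D4:**
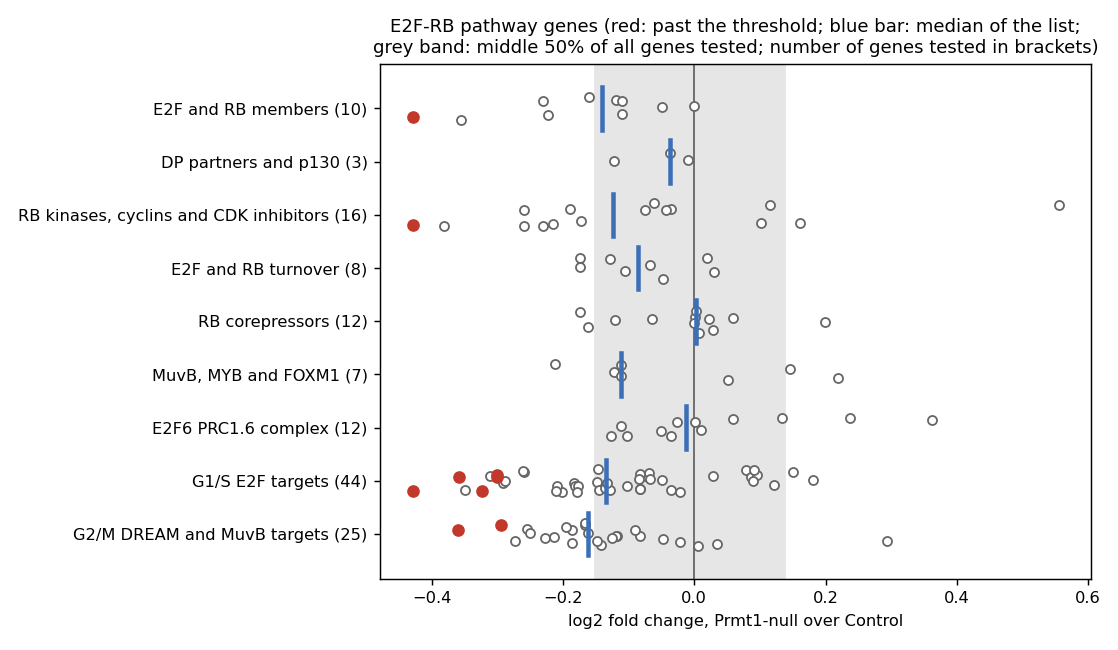
Log2 fold change, Prmt1-null over Control (horizontal axis), of every tested gene in the members and in 8 lists of pathway genes (rows, number of genes in brackets), with list medians as blue bars and the middle 50% of all genes tested as a grey band. Filled points passed the threshold, and the medians run from −0.16 for the G2/M targets to 0.002 for the RB corepressors, the single row whose median is not left of 0.

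The other lists gave no call, and their counts at an unadjusted p under 0.05 stand against 13.5% of all genes. Ubiquitin ligases and cofactors that turn over E2F and RB proteins were 8 genes, with a median log2 fold change of −0.09 and 1 gene at an unadjusted p under 0.05. Ccnf, the F-box cyclin that marks activator E2Fs for degradation, had means of 2607 ± 80.5 and 2310 ± 183.4 (log2 fold change −0.17, edgeR adjusted p = 0.338), and Cks1b, a cofactor of SKP2, of 2950 ± 117.8 and 2697 ± 48.0 (−0.13, adjusted p = 0.424). The 12 corepressors that RB recruits had a median of 0.002, with 5 negative and 7 positive values and 2 genes at an unadjusted p under 0.05. These were Smarca2, a chromatin remodelling ATPase (3204 ± 178.8 and 3678 ± 176.7, log2 fold change 0.20, adjusted p = 0.192), and Sin3a, a scaffold of histone deacetylases (6555 ± 88.0 and 6032 ± 135.9, −0.12, adjusted p = 0.352).

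The 12 genes of the PRC1.6 complex with which E2F6 acts had a median of −0.01, with 6 values on each side, and 1 gene at an unadjusted p under 0.05. This was Ring1, a ubiquitin ligase of the complex, with means of 368.3 ± 25.9 and 474.1 ± 40.0 and no overlap (log2 fold change 0.36, SE 0.14, edgeR adjusted p = 0.234). L3mbtl2, another subunit, had means of 824.6 ± 85.0 and 971.3 ± 66.1 (0.24, adjusted p = 0.393). Of 5 germline genes known to be silenced by E2F6, 1 had enough counts for the test, Stag3, a meiotic cohesin subunit, with means of 62.1 ± 11.5 and 37.2 ± 17.1 (log2 fold change −0.74, SE 0.44, adjusted p = 0.502). When 1 library was left out, the log2 fold change of Stag3 ran from −0.974 to −0.394.

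**Figure D5:**
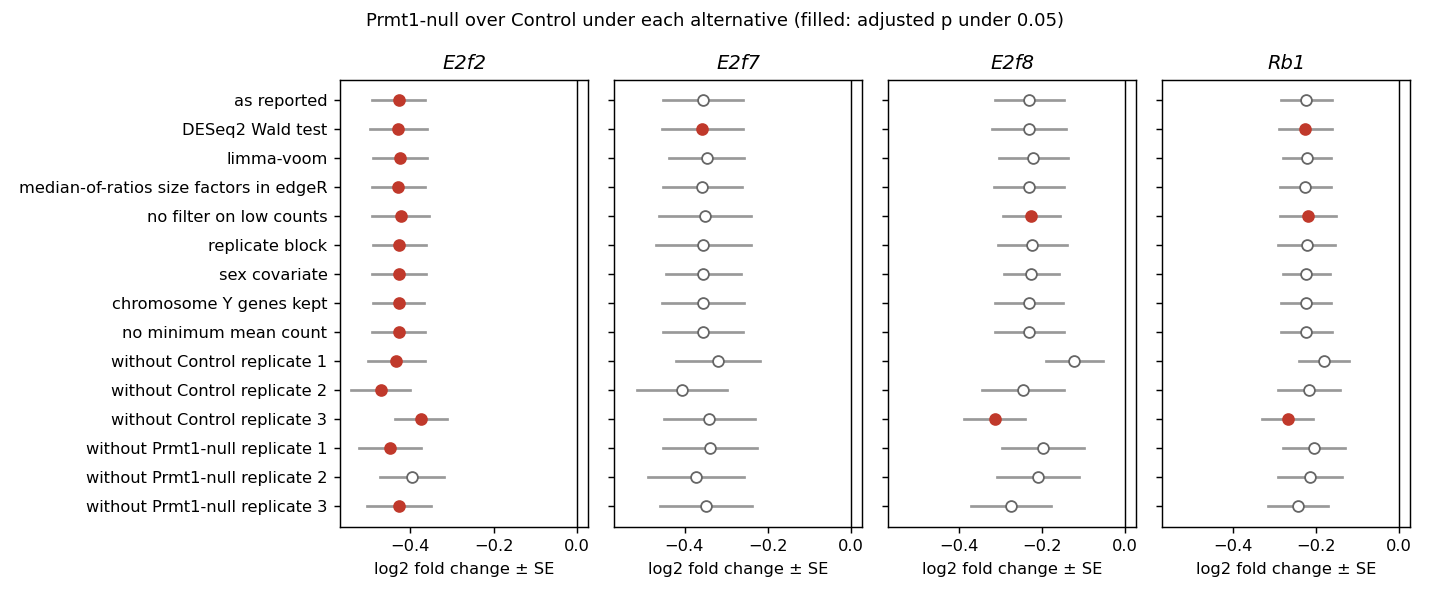
Log2 fold change with its SE (horizontal axes) of E2f2, E2f7, E2f8 and Rb1 under the reported fit and each alternative (rows), with filled points where the adjusted p was under 0.05. E2f2 is filled in every row except the one without Prmt1-null replicate 2, while E2f7 is filled under DESeq2, E2f8 without the filter or without Control replicate 3, and Rb1 in these last 2 rows and under DESeq2.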

How the data were processed

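RNA-seq libraries of 6 mice, 3 Control and 3 Prmt1-null, were compared. The deposited values are raw counts of reads per gene. The authors prepared rRNA-depleted stranded libraries, trimmed with Trimmomatic 0.32, mapped to mm10 with STAR 2.3.0e, discarded secondary alignments and reads with over 2 locations, and ran featureCounts 1.4.4 on Ensembl exons. The strand setting was not given in the sources used here. Groups, sexes and replicate numbers came from the labels. Each library is 1 mouse.

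Counts were tested in R 4.3.3 with edgeR 4.0.16 (TMM, filterByExpr with a minimum count of 10, quasi-likelihood test, Benjamini-Hochberg adjustment over 18268 genes), after 398 chromosome Y genes had been left out, as the authors did. The authors had tested with an older version of DESeq2, which was run here as an alternative. The biological coefficient of variation was 0.154. Normalized counts are scaled to the mean effective library size of 55454094. Of 39017 genes, 37693 were matched to GENCODE M21 (GRCm38) by ID and 813 by symbol. The scripts were tested on simulated data with known changes. Alternatives were DESeq2 1.42.0, limma-voom (limma 3.58.1), median-of-ratios size factors, no filter on low counts, a replicate block, a sex covariate, no minimum mean count, chromosome Y genes kept and each library left out. The members and lists were chosen with earlier results of these data known, and each list is described by counts and its median, with no set test. Named were all members, Prmt1, Rbl2, Tfdp1, Tfdp2, the D cyclins, Cdkn1a, and in each other list the genes past the threshold (up to 6) or the 2 with the smallest p. Ccne1, Ccne2 and Cdc25a stand in both the list of RB regulators and that of G1/S targets.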

Additional observations from a re-analysis of the deposited data

How the results depend on the processing

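In the edgeR fit used above, 1 member passed the threshold. The number was 3 with DESeq2 (E2f2, E2f7 and Rb1) and 3 without the filter on low counts (E2f2, E2f8 and Rb1). When 1 library was left out it was 0 to 3, with 0 without Prmt1-null replicate 2 and 3 without Control replicate 3. Over all genes the count of 216 became 746 with DESeq2, 675 without the filter, 151 with the replicate block, 283 with sex as a covariate and 31 to 340 when 1 library was left out. The 5 G1/S targets that were lower became 10 with DESeq2, 9 without the filter, 3 with the replicate block and 0 to 8 when 1 library was left out. The causes were not tested. The deviations of same-numbered libraries from their group means correlated at −0.115, 0.061 and −0.13. The highest such value between the groups was 0.203, for Control replicate 1 with Prmt1-null replicate 3, both male. Deviations from a mean of 3 libraries are tied to each other, so these values cannot exclude cultures shared between the groups. With the replicate block E2f2 stayed called, and Rfc2 (adjusted p = 0.0547), Dck (0.0598) and Ncapd2 (0.0529) were lost. Signs turned where the log2 fold change was close to 0. E2f4 was at 0.005 without the filter. When 1 library was left out, E2f4 ran from −0.037 to 0.046, E2f6 from −0.111 to 0.084, Rbl2 from −0.044 to 0.025, Ccnd1 from −0.264 to 0.049 and Ccnd2 from −0.098 to 0.009. E2f2 kept its direction in all 14 alternatives, between −0.47 and −0.37. Per length of the longest transcript, Control levels became 5.6 for E2f1, 34.0 for E2f4, 4.71 for E2f6, 4.53 for E2f7, 32.8 for E2f8, 50.7 for Rb1 and 27.8 for Rbl1. The lowest raw count of a member in any library was 593, for E2f6, and SEs were widest for E2f5 (0.129), E2f6 (0.126) and E2f1 (0.103), the members with the lowest counts, so smaller differences were detectable for Rbl1 (0.0581), Rb1 (0.0619) and E2f2 (0.0636).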

Other observations

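Of the 5 germline genes silenced by E2F6, Smc1b, which encodes a meiotic cohesin subunit, was too low for the reported test, and it is singled out after its values were seen. Its raw counts were 0, 1 and 0 in Control libraries and 10, 4 and 22 in Prmt1-null libraries. All 3 Prmt1-null libraries were above all 3 Control libraries, at a level of a few counts. In the edgeR fit without the filter on low counts its adjusted p was 0.17. Stag3, of the same list, had lower counts in Prmt1-null libraries, and Tuba3a, Tuba3b and Slc25a31 had at most 4 counts in any library.

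The markers of other cell types, looked at to check the samples, held 2 genes that rose past the threshold, of 6 plasma cell, 6 myeloid, 6 feeder and 5 T cell markers tested, against 0.580% of all genes called higher. Txndc5, a protein disulfide isomerase of the endoplasmic reticulum on the plasma cell list, went from 6045 ± 394.1 to 8258 ± 180 normalized counts (SD, n = 3 each, log2 fold change 0.45, SE 0.06, edgeR adjusted p = 0.00486). Adgre1, the gene of the macrophage antigen F4/80, listed in the table under its older symbol Emr1, went from 352.8 ± 52.1 to 585.5 ± 64.6 (log2 fold change 0.73, SE 0.15, edgeR adjusted p = 0.0319), while the other 5 myeloid markers were not called, 3 of the 6 had negative log2 fold changes (Lyz2 −0.76, Mpo −0.23 and Cd68 −0.07), and the summed level of the list overlapped between the groups. Both Lyz2 and Mpo had 0 counts in Control replicate 1, so their log2 fold changes depend on that library. Bank1, a B cell signalling adaptor on the B cell list, fell by 0.32 on the log2 scale (SE 0.07, edgeR adjusted p = 0.0403).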
